A study of Mus musculus with 12 samples.

Results

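The genes described here build the chromosome structures of meiosis, and 10 of them were followed by every probe that the array annotation assigns to them. Sycp1 encodes the transverse filament of the synaptonemal complex, Syce1 and Syce2 its central element, Sycp2, Sycp3 and Hormad1 proteins of the chromosome axis, Stag3, Smc1b and Rec8 subunits of the meiotic cohesin, and Dmc1 the recombinase of meiotic strand exchange. They are represented by 11 of the 45281 probes, since Sycp2 has 2 probes, and by 10 of the 19057 genes named on the array. A probe was kept where its detection p-value, the share of negative control beads brighter than the probe, was under 0.05 on at least 3 of the 12 arrays. By that filter 7 of the 10 genes could be tested, among 11445 genes in all, and Sycp3, Hormad1 and Dmc1 had no kept probe.

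The study exposed E14 mouse embryonic stem (ES) cells to the drug panobinostat (LBH589), which blocks histone deacetylases and so raises acetylation of histones and other proteins. E14 is a single male line of the 129/Ola strain, here wild type and grown without feeder cells on gelatin in serum with the cytokine LIF. Control cells (0 h) were set beside cells kept in the drug at 50 nM over 2 h, 6 h and 18 h, and each time had 3 Illumina bead arrays. The labels name no vehicle and no control cells at the later times, so effects of the drug and those of handling or time in culture cannot be told apart.

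In germ cells, the sister chromatids of each chromosome are organised along an axis built on meiotic cohesin, in which Rec8, Stag3 and Smc1b take the places held by Rad21, Stag1 or Stag2, and Smc1a in other cells. Sycp2 and Sycp3 assemble on that axis, and Sycp1 filaments with the central element proteins then join the axes of homologous chromosomes. Many germline genes are kept silent in mouse ES cells by the Polycomb complex PRC1.6, which carries histone deacetylases and can reach DNA through E2f6 and through the Mga and Max proteins.

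Of the 45281 probes, 16813 to 18111 were detected on each array, where probes averaged 307.3 to 482.7 signal units. The ES cell label was checked on 10 markers of pluripotent cells, of which 9 were detected on all arrays of every group. From 6 h on, 8 of the 9 tested were lower than at 0 h, and the summed signal of the list went from between 60648 and 71867 at 0 h to between 34959 and 40777 at 18 h. The labels do not say that the 3 arrays of a time came from separate cultures, so the spread behind each p-value is that between these samples and may be technical. In bulk RNA, a change in the share of cells that express a gene cannot be told apart from a change in the amount of RNA per cell.

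The promoters of 5 of the genes are shown first, 3 that were higher at 18 h (Rec8, Sycp2 and Sycp1) and 2 that stayed undetected (Sycp3 and Hormad1). Each is the stretch of 250 bases before the annotated start, from RefSeq in build GRCm38.p6, written 5′ to 3′ on the gene's own strand. Capitals mark TCCCGC or its reverse complement GCGGGA, the core that E2f6 is known to bind, and CACGTG, the E-box read by Mga with Max.
Rec8 (chr14:55617916-55618165, plus strand): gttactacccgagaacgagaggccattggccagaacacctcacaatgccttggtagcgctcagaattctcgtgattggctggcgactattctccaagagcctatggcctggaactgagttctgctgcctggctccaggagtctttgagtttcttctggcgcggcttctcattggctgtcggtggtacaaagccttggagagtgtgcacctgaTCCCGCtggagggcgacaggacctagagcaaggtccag
Sycp2 (chr2:178407659-178407908, minus strand): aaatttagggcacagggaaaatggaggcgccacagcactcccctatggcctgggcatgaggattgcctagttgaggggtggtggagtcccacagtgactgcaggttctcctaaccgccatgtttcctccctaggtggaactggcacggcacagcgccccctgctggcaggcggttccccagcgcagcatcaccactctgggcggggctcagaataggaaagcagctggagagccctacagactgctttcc
Sycp1 (chr3:102936101-102936350, minus strand): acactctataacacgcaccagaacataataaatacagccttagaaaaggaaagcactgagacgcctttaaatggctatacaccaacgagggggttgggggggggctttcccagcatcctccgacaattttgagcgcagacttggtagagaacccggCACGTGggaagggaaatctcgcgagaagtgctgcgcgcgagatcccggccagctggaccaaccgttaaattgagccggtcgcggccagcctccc
Sycp3 (chr10:88459337-88459586, plus strand): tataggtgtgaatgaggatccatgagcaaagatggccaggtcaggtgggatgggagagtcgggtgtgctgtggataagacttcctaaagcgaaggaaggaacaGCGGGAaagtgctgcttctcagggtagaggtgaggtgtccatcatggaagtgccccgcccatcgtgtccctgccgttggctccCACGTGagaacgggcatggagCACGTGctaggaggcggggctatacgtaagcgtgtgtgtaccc
Hormad1 (chr3:95559427-95559676, plus strand): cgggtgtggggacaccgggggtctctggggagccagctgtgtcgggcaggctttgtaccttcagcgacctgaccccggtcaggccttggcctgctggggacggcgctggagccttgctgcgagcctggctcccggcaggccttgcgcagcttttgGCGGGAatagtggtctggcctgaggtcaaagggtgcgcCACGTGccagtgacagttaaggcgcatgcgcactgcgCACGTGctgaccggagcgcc
The Rec8 stretch holds 1 E2F-type match, 38 bases before the start, and the Sycp1 stretch holds 1 E-box, 94 bases before the start, with an E2F-type match just past the start and so outside the stretch. Sycp3 and Hormad1 each carry 1 E2F-type match and 2 E-boxes, while the Sycp2 stretch has neither motif. Counting up to 50 bases past the start, both motifs were found for Sycp1, Sycp3 and Hormad1, undetected at 0 h. They were also found for Stag3 and Syce2, detected at 0 h. Dmc1, undetected at 0 h, and Rec8 and Smc1b, detected there, had the E2F-type motif and no E-box. A link between motifs and detection was not tested. In windows of 300 bases, from 250 before to 50 after the start, and on both strands, the E2F-type motif was found in 10 of the 12 windows that cover the 10 genes and in 20.0% of 32851 windows of all genes. The E-box was found in 6 of 12 against 7.15%, and both together in 6 of 12 against 1.99%. The windows of Hormad1 overlap each other, as do those of Syce2. By gene, the E2F-type motif was found for 8 of 10, the E-box for 5 of 10 and both for 5 of 10. No match of one motif overlapped a match of the other in the 12 windows. These windows were also rich in CpG, with a median of 20 CpG dinucleotides against 7 in all windows, and the part of base composition in the motif counts was not tested. Syce1 and Sycp2 were the genes without either motif.

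Detection at 0 h divided the genes evenly. Rec8, Stag3, Smc1b, Syce1 and Syce2 were above background on all 3 control arrays, so 5 of the 10 genes already gave a signal in ES cells before exposure, among them all 3 cohesin subunits and both central element genes. Sycp1, Sycp2, Sycp3, Hormad1 and Dmc1 were not well above background on any control array. Values below are log2 signals after background correction and quantile normalization, and they are compared between times for a probe, never between probes.

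Across the 7 tested genes, 3 were higher at 18 h than at 0 h (Rec8, Sycp2 and Sycp1) and none was lower at an adjusted p under 0.05. Among all genes tested, 20.9% were higher and 15.7% lower by the same rule. The filter bears on this count, since Sycp2 passed it only through its 18 h arrays and Sycp1 only through exposed arrays, while Sycp3, Hormad1 and Dmc1 dropped out. Counts, shares and medians over the 7 genes are therefore given as descriptions. With no filter on dim probes, the same 3 genes passed of 10. In that setting 4068 genes passed in either direction, with 19057 genes named on the array. The median log2 change of the 7 genes was 0.65 at 18 h, against 0.05 over all genes tested. No gene of the 7 passed at 2 h or at 6 h, where 3.48% and 31.3% of all genes passed in either direction. The median log2 changes of the 7 were -0.39 and -0.42, against -0.005 and 0.02 over all genes tested. These medians of the 7 are the values of Syce1 at 2 h and Syce2 at 6 h, neither of which passed. At an unadjusted p under 0.05 the tests found Syce1 and Syce2 at 2 h and Syce1 at 6 h, all with lower signal than at 0 h. The share of all genes at that unadjusted threshold was not counted, and is at least 3.48% at 2 h and 31.3% at 6 h. Changes are from a limma linear model over all 12 arrays, with p-values adjusted by Benjamini-Hochberg over all 11445 genes.

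**Figure D1:**
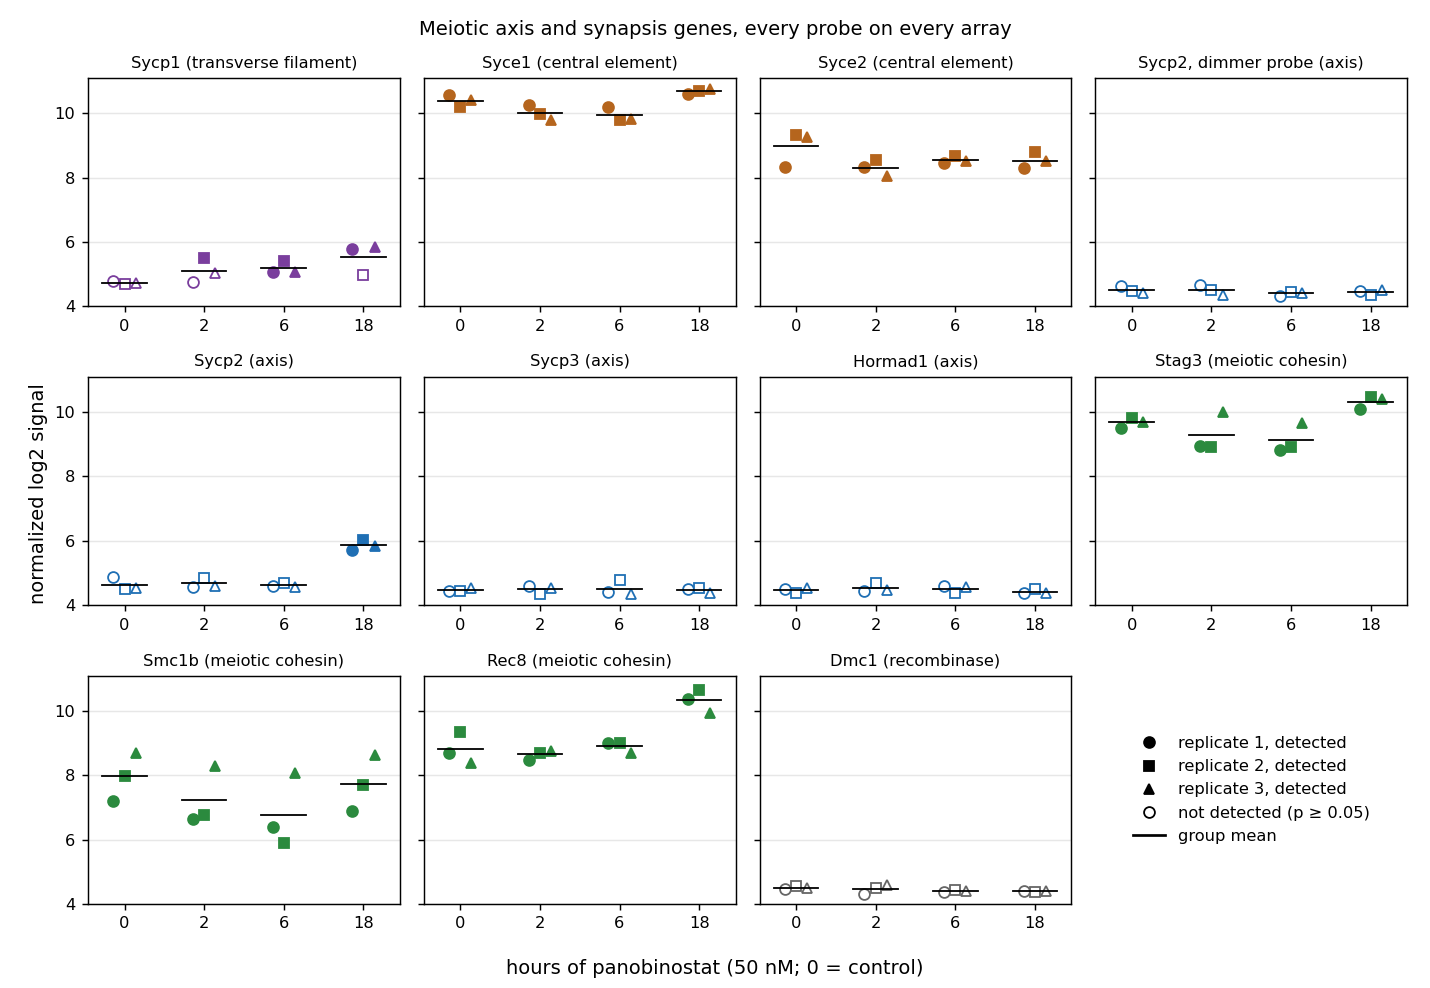
Normalized log2 signal (vertical axis) of each of the 11 probes on the 12 arrays, by hours of panobinostat (horizontal axis, evenly spaced); marker shapes are replicate numbers, filled markers were detected at p under 0.05, open ones were not, and bars are group means. Rec8 and the brighter Sycp2 probe stand apart at 18 h, Stag3 and Syce1 have their lowest mean at 6 h and their highest at 18 h, and the probes of Sycp3, Hormad1 and Dmc1 lie between 4.32 and 4.77 throughout.

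Sycp1, whose filaments span the gap between paired axes, came above background only during exposure. Its log2 signals were 4.79, 4.68 and 4.73 at 0 h, 4.75, 5.50 and 5.04 at 2 h, 5.06, 5.42 and 5.08 at 6 h, and 5.78, 4.98 and 5.83 at 18 h. None of the 3 arrays detected it at 0 h, 1 did at 2 h, all 3 did at 6 h and 2 did at 18 h, where replicate 2 missed with a detection p of 0.0662. All 18 h arrays were above all 0 h arrays, and the 18 h values overlapped those of 6 h. The mean was 4.73 ± 0.05 (SD, n = 3) at 0 h and 5.53 ± 0.47 at 18 h. The log2 change was 0.80 (SE 0.24, limma adjusted p = 0.0182). Since no control array detected Sycp1, the rise of the mean is given as a bound, at least 1.38-fold. Such a bound, here and below, sets the 18 h mean against the lowest signal among detected probes on each array of the other time. It holds only for the background-corrected signals and makes no allowance for the spread between arrays. The 18 h mean of Sycp1 includes the undetected replicate 2. In the authors' normalized intensities Sycp1 read 119.3, 115.9 and 117.6 at 0 h and 149.0, 124.8 and 151.1 at 18 h. The call was lost without 18h replicate 1 (adjusted p = 0.0764), without 18h replicate 3 (0.0718), under 75th percentile scaling (0.0929) and with array weights (0.0540). The moderated F test over the 4 times did not call Sycp1 (adjusted p = 0.0745).

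The central element genes differed from each other. Syce1, which joins the central element to the transverse filament, read 10.57, 10.20 and 10.41 at 0 h, 10.25, 9.97 and 9.79 at 2 h, 10.19, 9.81 and 9.83 at 6 h, and 10.59, 10.70 and 10.77 at 18 h. All 18 h arrays exceeded all others, and all 6 h arrays were below all 0 h arrays. The share of all genes with such a separation at 6 h was not counted. The log2 change from 0 h to 6 h was -0.45 (SE 0.17, limma adjusted p = 0.0617), which did not pass. It passed in some alternative settings, among them the authors' normalized intensities (adjusted p = 0.0302) and without 6h replicate 1 (0.0443). The log2 change from 6 h to 18 h was 0.74 (SE 0.17, limma adjusted p = 0.0174), while that from 0 h to 18 h was 0.29 (SE 0.17, adjusted p = 0.202). The call from 6 h to 18 h was lost without 6h replicate 2 (adjusted p = 0.0638), without 6h replicate 3 (0.0695) and under 75th percentile scaling (0.0907). The test over all times called Syce1 at an adjusted p of 0.00907 (0.0706 under 75th percentile scaling).

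Syce2, which with Tex12 extends the central element along the chromosome, showed its highest values at 0 h. It read 8.33, 9.34 and 9.27 at 0 h, 8.34, 8.56 and 8.05 at 2 h, 8.46, 8.69 and 8.52 at 6 h, and 8.30, 8.79 and 8.52 at 18 h. Replicate 1 of the control stood lower than the other two control arrays and within the range of the exposed ones. The log2 changes of -0.66 at 2 h (SE 0.25, limma adjusted p = 0.172), -0.42 at 6 h (adjusted p = 0.216) and -0.44 at 18 h (adjusted p = 0.177) did not pass. Without 0h replicate 1 all 3 passed, with log2 changes of -0.99, -0.75 and -0.77 and adjusted p of 0.0234, 0.0165 and 0.0123.

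Among the axis genes, Sycp2 was the one that could be tested, and it rose at 18 h by 1 of its 2 probes. Its brighter probe read 4.88, 4.50 and 4.52 at 0 h, 4.57, 4.84 and 4.60 at 2 h, 4.61, 4.69 and 4.55 at 6 h, and 5.72, 6.02 and 5.85 at 18 h. It was detected on no array before 18 h and on all 3 at 18 h, with no overlap between 18 h and any earlier time. The mean was 4.63 ± 0.21 (SD, n = 3) at 0 h and 5.86 ± 0.15 at 18 h. The log2 change was 1.23 (SE 0.16, limma adjusted p = 8.5e-05), a rise of at least 1.74-fold in the background-corrected signals. In the authors' normalized intensities the probe read 121.8, 109.1 and 109.9 at 0 h and 146.9, 158.9 and 151.8 at 18 h. Because the probe entered the test only through the 18 h arrays, a difference between 18 h and the other times was built into its selection. Against 6 h, where its mean was 4.62, the log2 change was 1.25 (SE 0.16, adjusted p = 0.000652), at least 1.76-fold. The second Sycp2 probe was detected on no array, with log2 signals of 4.33 to 4.66, so the 2 probes of this gene disagreed at 18 h.

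Sycp3, the partner of Sycp2 in the lateral element, and Hormad1, an axis protein that monitors unsynapsed chromosomes, were not well above background on any of the 12 arrays. The log2 signals of Sycp3 ran from 4.34 to 4.77 and those of Hormad1 from 4.37 to 4.69, with detection p-values no lower than 0.141 and 0.217. Dmc1 was likewise undetected throughout, at 4.32 to 4.57 and detection p-values of 0.334 or more. With the filter removed, their fitted log2 changes at 18 h were -0.01 for Sycp3 (limma adjusted p = 0.973), -0.05 for Hormad1 (0.833) and -0.11 for Dmc1 (0.479). A signal below the background of these arrays would not be seen, so their level has only an upper bound.

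Among the cohesin subunits, Rec8, the meiotic kleisin that closes the ring, was the one called at 18 h against 0 h. It read 8.69, 9.34 and 8.39 at 0 h, 8.49, 8.69 and 8.77 at 2 h, 9.01, 9.01 and 8.70 at 6 h, and 10.38, 10.67 and 9.94 at 18 h. The first 3 times overlapped, and all 18 h arrays lay above every earlier one. The mean rose from 8.81 ± 0.48 at 0 h to 10.33 ± 0.37 at 18 h (SD, n = 3), which is 2.87-fold or a log2 change of 1.52 (SE 0.24, limma adjusted p = 0.000363). From 6 h to 18 h the log2 change was 1.42 (SE 0.24, adjusted p = 0.00357). Rec8 and Sycp2 passed in both of these comparisons under all the alternative settings run.

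Stag3, the meiotic subunit that docks on the kleisin, was lowest in the middle of the series. It read 9.52, 9.81 and 9.71 at 0 h, 8.94, 8.91 and 10.01 at 2 h, 8.83, 8.91 and 9.66 at 6 h, and 10.09, 10.48 and 10.41 at 18 h. All 18 h arrays were above all others, and at 2 h and 6 h replicate 3 was far above the other two. Between 6 h and 18 h the mean rose from 9.13 ± 0.46 to 10.33 ± 0.21, a log2 change of 1.20 (SE 0.29, limma adjusted p = 0.0196). That call was lost without 6h replicate 1 (adjusted p = 0.0783), 6h replicate 2 (0.0713), 18h replicate 2 (0.0666) or 18h replicate 3 (0.0544). From 0 h to 18 h the log2 change of 0.65 (SE 0.29, adjusted p = 0.0937) did not pass, and it passed when only those 2 times were fitted (0.0323) or without 2h replicate 3 (0.0328). The test over all times called Stag3 (adjusted p = 0.0152), but not without 18h replicate 2 (0.0588) or 18h replicate 3 (0.0516).

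Smc1b, the meiotic counterpart of Smc1a, varied more within times than between them. It read 7.21, 7.99 and 8.69 at 0 h, 6.65, 6.77 and 8.28 at 2 h, 6.38, 5.89 and 8.06 at 6 h, and 6.87, 7.71 and 8.62 at 18 h. Replicate 3 was the highest array at each of the 4 times, and every pair of times overlapped. The log2 changes were -0.73 at 2 h, -1.18 at 6 h and -0.23 at 18 h, each with an SE of 0.60, and none passed (limma adjusted p = 0.590, 0.154 and 0.801). Without 6h replicate 3 the 6 h change was -1.83 (adjusted p = 0.0322). Replicate number took 64.2% of the sum of squares of Smc1b and time 26.8%. With replicate number as a block the 6 h change passed (limma adjusted p = 0.00323), and the labels do not say what a number marks.

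**Figure D2:**
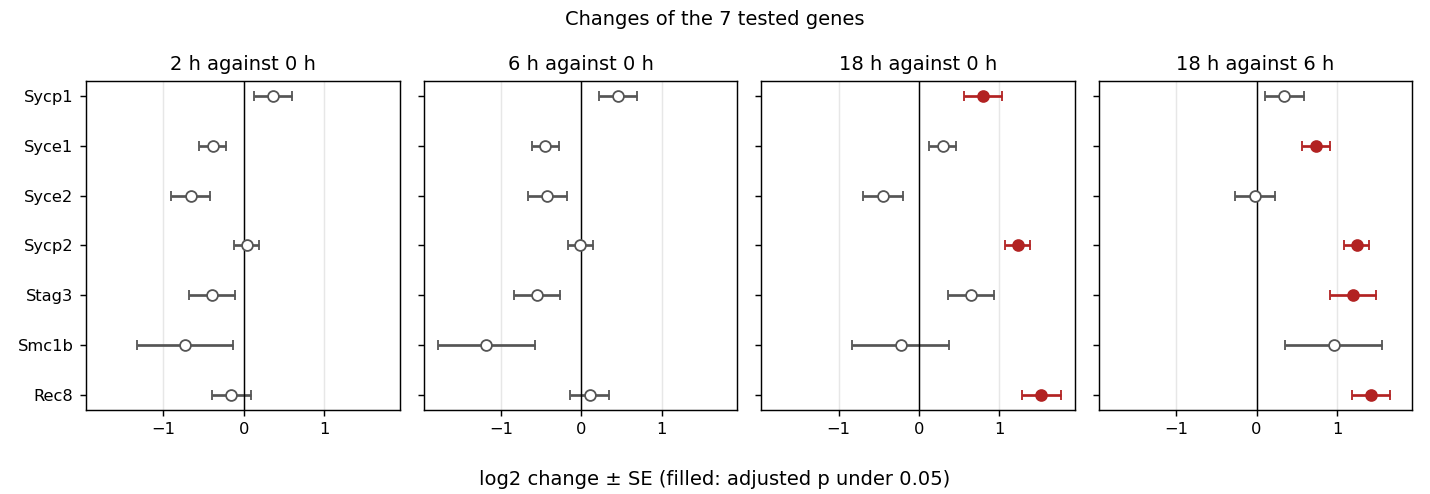
Log2 change with its standard error (horizontal axis) for the 7 tested genes (vertical axis) in 4 comparisons; filled red points have an adjusted p under 0.05. No point is filled at 2 h or 6 h, Sycp1, Sycp2 and Rec8 are filled at 18 h against 0 h, and Syce1, Sycp2, Stag3 and Rec8 at 18 h against 6 h.

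From 6 h to 18 h, 4 of the 7 genes rose (Rec8, Sycp2, Stag3 and Syce1), against 6.16% of all genes tested. The count was 2, Rec8 and Sycp2, without 6h replicate 2. The median log2 change of the 7 was 0.96 against 0.01 over all genes. That median is the value of Smc1b (SE 0.60, limma adjusted p = 0.339), which did not pass. From 2 h to 6 h none of the 7 passed, where 13.1% of all genes did, and none of the 7 had an unadjusted p under 0.05. Over the 4 times together, 4 of 7 passed the F test (Rec8, Sycp2, Stag3 and Syce1), against 43.9% of all genes, so that share is not far from the background. For 5 of 7 genes (Sycp1, Sycp2, Syce1, Stag3 and Rec8) all 18 h arrays lay above all 0 h arrays, which held for 24.9% of all genes tested. The comparisons with 0 h share the control arrays, and those with 6 h share the 6 h arrays, so these counts are not independent of each other. Sycp2 passed the filter only through its 18 h arrays and Sycp1 only through exposed arrays, while Sycp3, Hormad1 and Dmc1 dropped out. These counts, shares and medians are therefore descriptions. By the rule on 6 h alone, 13.6% of all genes were lower than at 0 h and none of the 7 was. The fitted changes of 5 of the 7 were below 0, among them Sycp2 at -0.015, which was undetected at both times. The median over all genes was 0.02, and the share of all genes below 0 was not counted.

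The meiotic cohesin subunits were set beside the subunits that do the same work in all cells. Whether the log2 difference within each pair varied over the 4 times, in any direction, was tested by an exact permutation test over all 15400 arrangements of the 12 arrays into 4 times, with Benjamini-Hochberg adjustment over 4 pairs and 6.49e-05 as the smallest p possible.

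At 18 h the Stag3 signal was 0.65 above its 0 h mean on the log2 scale, while Stag1 was at -0.59 (SE 0.29, limma adjusted p = 0.132) and Stag2 at -1.07 (SE 0.27, adjusted p = 0.00753). The Stag3 minus Stag1 difference differed among the 4 times (exact permutation p = 0.00734, adjusted 0.0191). Relative to 0 h it was -0.59 at 2 h, 0.04 at 6 h and 1.23 at 18 h, with 0.64 to 1.64 on the 18 h arrays and -0.28 to 0.47 at 0 h. The Stag3 minus Stag2 difference also differed among the times (exact permutation p = 0.00955, adjusted 0.0191). Relative to 0 h it was -0.37 at 2 h, 0.40 at 6 h and 1.72 at 18 h, with 1.25 to 2.21 on the 18 h arrays and -0.21 to 0.28 at 0 h. The arrays of 18 h and 0 h did not overlap in either difference, and 18 h against 0 h was not tested on its own. Both pairs use the same Stag3 values, and both lost the call without 18h replicate 1 (adjusted p = 0.102), 18h replicate 2 (0.0530), 2h replicate 1 (0.0599) or 2h replicate 2 (0.0534).

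For Rec8 and Smc1b no difference passed in the main test. Rad21, the kleisin of mitotic cells, changed by 0.24 at 18 h (SE 0.35, limma adjusted p = 0.643), and Rec8 exceeded it by 1.29. The arrays ran from 0.38 to 2.08 at 18 h and from -0.97 to 1.39 at 0 h (exact permutation p = 0.148, adjusted 0.197), and the pair passed without 0h replicate 2 (adjusted p = 0.0258). Smc1b and Smc1a differed in change by -0.01 at 18 h and -0.78 at 6 h (exact permutation p = 0.601). With the arrays rearranged only within replicate numbers, the permutation test of this pair gave an adjusted p of 0.0370.

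**Figure D3:**
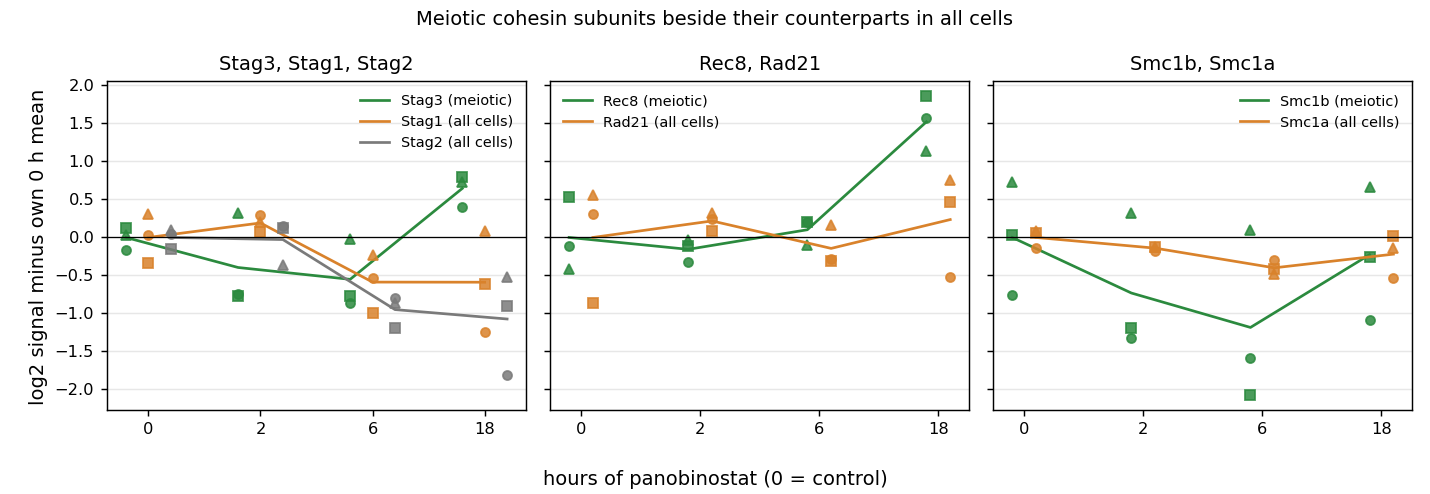
Log2 signal minus the gene's own 0 h mean (vertical axis) on each array by hours of panobinostat (horizontal axis, evenly spaced) for Stag3 with Stag1 and Stag2, Rec8 with Rad21, and Smc1b with Smc1a; points are arrays, marker shapes replicate numbers, and lines join group means. Stag3 ends at 0.65 while Stag1 and Stag2 end at -0.59 and -1.07, and the Smc1b points spread over more than those of Smc1a at every time.

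Other genes of meiosis and of chromatin were counted from lists drawn up by role. For reading these counts, 20.9% of all genes tested were higher and 15.7% lower at 18 h, and 17.7% higher and 13.6% lower at 6 h. Of 10 tested genes for other axis, synapsis and telomere attachment proteins, 3 rose and 1 fell at 18 h, with a median log2 change of 0.04. Spdya, which works with Cdk2 at meiotic telomeres, rose by 2.58 on the log2 scale (SE 0.20, limma adjusted p = 3e-06) and had already risen by 1.53 at 6 h. Terb2, a telomere attachment protein, rose by 1.55 (adjusted p = 0.000205), and Syce3, another central element protein, rose by 0.86 (adjusted p = 0.00121). Trip13, the ATPase that takes Hormad proteins off the axis, fell by 0.68 (adjusted p = 0.0368), a call that was lost in 7 of 23 alternative settings. At 6 h the gene listed as 4930447C04Rik (Six6os1, of the central element) fell by 1.28 (adjusted p = 0.00184). Hormad2 and Tex12 were among those undetected at 18 h.

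Of 14 tested genes of meiotic recombination, 2 were higher and 1 lower at 18 h, with a median of 0.08. Rec114, needed for the breaks that start recombination, rose by 1.03 on the log2 scale (SE 0.25, limma adjusted p = 0.00603). Mnd1, which assists Dmc1 in strand exchange, fell by 0.58 (adjusted p = 0.0474), a call lost in 12 of 23 alternative settings. At 6 h Zcwpw1, a histone reader that acts with Prdm9, fell by 0.48 (adjusted p = 0.0463), a call lost in 10 of 23 settings. Spo11, the nuclease of the breaks, was detected on no array at 18 h.

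Regulators of meiotic entry and early germ cell genes had a median of 0.52 at 18 h, with 5 higher and none lower of 14 tested. Taf7l, a germ cell form of a general transcription factor subunit, rose by 1.66 (SE 0.28, limma adjusted p = 0.000609). Meioc, which sustains meiotic prophase, rose by 1.38 (adjusted p = 0.0008), and Dazl, an RNA-binding protein of germ cells, rose by 1.32 (adjusted p = 0.00556). The other two calls, named after their values were seen, were Figla at 0.74 (adjusted p = 0.0456) and Stk31 at 0.73 (adjusted p = 0.0265). Stk31 had fallen by 0.77 at 6 h (adjusted p = 0.0246), while Meioc was already higher by 0.79 (adjusted p = 0.0254). Stra8, the regulator that starts meiosis in response to retinoic acid, had a log2 change of 1.21 at 18 h (SE 0.54, adjusted p = 0.0924), which did not pass.

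The cohesin of all cells, with its loaders and partners, had a median of -0.27 at 18 h, with 1 gene higher and 2 lower of 14, a share lower that is near the background. Stag2 and Cdca5 (sororin, which protects cohesion) fell, Cdca5 by 0.83 (limma adjusted p = 0.012, and 0.0556 without 0h replicate 1). Smc3, the partner of both Smc1 forms, rose by 0.62 (adjusted p = 0.049), which held in 10 of 23 alternative settings. At 6 h 3 were lower, Pds5a by 0.95, Stag2 by 0.95 and Cdca5 by 0.69.

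Of 13 tested subunits of PRC1.6, none rose and 4 fell at 18 h, with a median of -0.22. Cbx3, a reader of methylated histone H3, fell by 0.91 (limma adjusted p = 0.0266, lost in 4 of 23 alternative settings). Tfdp1, the partner of E2f factors, fell by 0.71 (adjusted p = 0.00792) and Pcgf6, the defining subunit, by 0.63 (adjusted p = 0.00605). The fourth, named after its values were seen, was Wdr5 at -0.49 (adjusted p = 0.0424). At 6 h Tfdp1 fell by 0.87, Rnf2, the ubiquitin ligase, by 0.87 and Pcgf6 by 0.46. E2f6 changed by -0.19 (adjusted p = 0.397) and Mga by -0.22 (adjusted p = 0.532) at 18 h, and neither passed. Max, which pairs with Mga, was detected on no array. At 2 h no gene of these 5 lists passed.

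**Figure D4:**
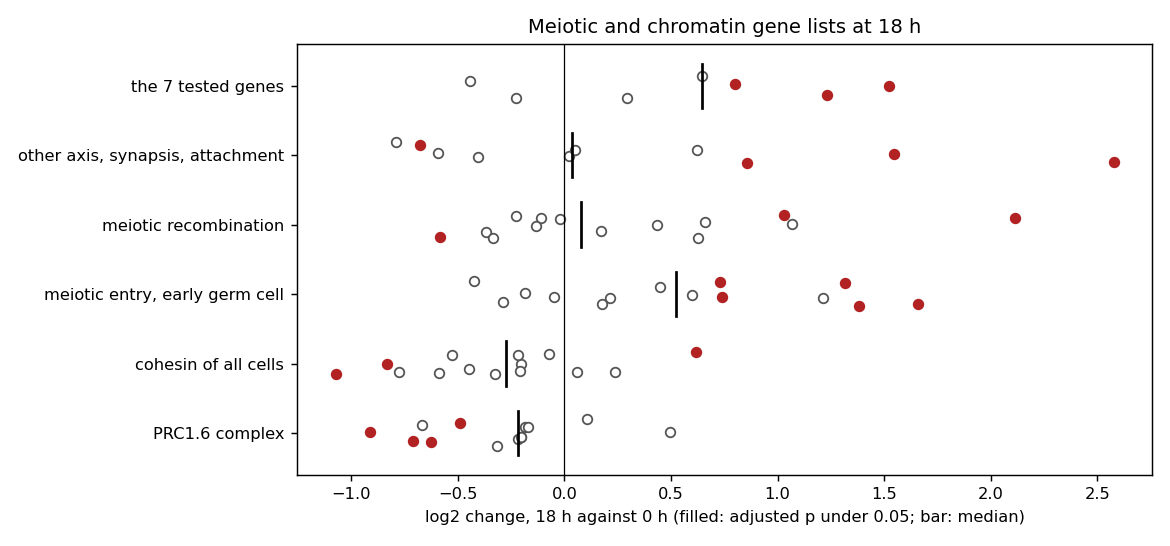
Log2 change at 18 h against 0 h (horizontal axis) of each tested gene in 6 groups (vertical axis); filled red points have an adjusted p under 0.05 and bars are group medians. The 7 tested meiotic chromosome genes have a median of 0.65 and the meiotic entry list one of 0.52, while the cohesin list of all cells and PRC1.6 have medians of -0.27 and -0.22.

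Markers of other cell types were read beside these counts. Of 7 tested markers of germ cells in meiosis, 3 were higher at 18 h (Meioc, Piwil1 and Dazl) and none lower, and Meioc and Dazl also stand in the entry list. Their summed signal went from between 960.1 and 1301 at 0 h to between 1697 and 2101 at 18 h. The markers of later stages, Acrv1, H1f6 and Pgk2, were detected on no array at any time. Of 4 tested fibroblast markers, 2 were higher at 18 h. Thy1 rose by 2.22 on the log2 scale and Pdgfrb, undetected at 0 h, by at least 1.18-fold. Pdgfrb was detected on 2 of the 3 arrays at 18 h, and its call held in 14 of 22 alternative settings. The summed signal of the fibroblast list was 5140.2 to 5849 at 0 h and 4724 to 7935 at 18 h. Col3a1, Dcn and Postn were undetected throughout. Of 5 blood and endothelium markers, Hba-a1, undetected at 0 h, was at least 4.35-fold higher and Tek changed by -1.27 on the log2 scale, with a summed signal of 617.4 to 733.9 at 0 h and 622.6 to 732.2 at 18 h, and Ptprc, Spi1 and Lyz2 were undetected throughout. The part of these cell types, and of the fall in pluripotency markers, in the results above was not tested.

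The genes whose course over the 12 arrays lay closest to each riser were found by the root mean square (RMS) difference in log2 signal, each gene set against its own 0 h mean. For Rec8, whose own RMS was 0.81, they were Ppp2r2b, a phosphatase subunit (RMS difference 0.21), Alcam, an adhesion molecule (0.24), and Gsto2, a glutathione transferase (0.25). For Sycp2, with an RMS of 0.63, they were Mro (0.22), S100a3, a calcium-binding protein (0.22), and Ptprz1, a receptor phosphatase (0.23). For Sycp1, with an RMS of 0.56, they were 1700052K11Rik (0.21), Fam166b (0.22) and Ccdc184 (0.23). Ppp2r2b, Alcam, Mro, S100a3, Ptprz1 and Ccdc184 were detected on no control array, like Sycp2 and Sycp1. The 0 h mean of these genes is therefore a background value.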

How the data were processed

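Arrays were grouped by the labels. The deposited unnormalized table holds, per the file headers, a signal intensity and a detection p-value for each probe on each array, exported by the authors with GenomeStudio per the submitters' processing notes, with no version. The authors' normalized intensity values, also deposited, served as an alternative. Probes were named from the platform annotation (34885 with 1 gene, 18 with several, the rest unnamed) and 34807 were updated through RefSeq (GRCm38.p6). Signals were background corrected with normexp, using the detection p-values for the background and an offset of 16, quantile normalized and log2 transformed with limma 3.58.1 in R 4.3.3. The offset compresses changes of dim probes relative to a correction without one. Relative to signals without background correction, the changes of dim probes are larger. The log2 change of Spdya at 18 h, for example, ran from 1.33 to 2.85 over 23 alternative settings. Of the 45281 probes, 20029 had a detection p under 0.05 on at least 3 arrays. Each gene was read by its kept probe with the highest mean. The model (lmFit and eBayes, 1 mean per time, 2-sided) was checked on simulated data with independent noise on each array. That simulation does not cover deviations shared by arrays of the same replicate number. The number of arrays limits the precision.

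The genes and lists were chosen with earlier results of these data known. The text names all 10 genes and, per list and comparison with 0 h, up to 3 called genes with the largest rise and 3 with the largest fall. It also names both genes of each cohesin pair and the 3 genes closest in course to each gene called at 18 h. A called gene of the recombination list is not reported here. There were 24 alternatives: other background, normalization and filter settings, probe averaging, the compared times alone, a replicate block, array weights and leaving out each array. Gene lists were refitted in 23 of them, a choice made after seeing the data.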

Additional observations from a re-analysis of the deposited data

How the results depend on the processing

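Of the 24 alternatives, 12 leave out an array, and at 3 arrays a time single arrays decided several calls. The count of genes called at 18 h against 0 h ran from 2 to 4 over these 12, at 18 h against 6 h from 2 (without 6h replicate 2) to 4, at 2 h from 0 to 1 and at 6 h from 0 to 1. At 6 h Syce1 alone passed, as lower, for a count of 1, without background correction, with an offset of 50, in the authors' normalized table and with array weights. The adjusted p of Rec8 against Rad21 ran from 0.0258 to 0.530 over the left-out arrays, of Stag3 against Stag1 from 0.00597 to 0.102 and of Stag3 against Stag2 from 0.0013 to 0.102. With the mean of a gene's kept probes it was 0.0548 for Stag3 against Stag1. Under 75th percentile scaling the median of all genes at 18 h was -0.11, against 0.05. Over 23 alternatives at 18 h, higher and lower counts were 3 to 4 and 0 to 3 for the axis and synapsis list, 2 to 5 and 0 to 2 for recombination, 3 to 6 and 0 to 1 for meiotic entry, 0 to 1 and 1 to 4 for cohesin and 0 to 1 and 2 to 6 for PRC1.6. At 6 h they were 1 to 2 and 1 to 2, 0 to 1 and 0 to 2, 0 to 2 and 0 to 2, 0 and 0 to 4, and 0 and 1 to 6, in that order.

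Arrays that share a replicate number deviated together, with correlations above 0.1 in 16 of 18 pairs (0.0658 to 0.487, against -0.403 to 0.131 for other numbers), and 12 of 12 arrays correlated best with their own number. The labels do not say what a number marks. With the replicate block, 2 genes were called lower at 6 h, Syce1 and Smc1b (-1.18, adjusted p = 0.00323), Smc1b passed at 18 h against 6 h (adjusted p = 0.0214) and over all times (0.00711), Stag3 passed at 18 h against 0 h (0.0300), and Smc1b against Smc1a gave an adjusted p of 0.0370.

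Changes that turned in sign did not pass in any setting. With single arrays left out, Rec8 ran from -0.36 to 0.11 at 2 h and from -0.11 to 0.37 at 6 h, Smc1b from -0.67 to 0.20 at 18 h, and Syce2 from -0.15 to 0.098 at 18 h against 6 h. Sycp2 ran from -0.049 to 0.16 at 2 h and from -0.080 to 0.11 at 6 h. For 6 h against 2 h the ranges were -1.09 to 0.071 for Smc1b, -0.42 to 0.20 for Stag3, -0.19 to 0.063 for Syce1, -0.087 to 0.29 for Sycp1 and -0.10 to 0.034 for Sycp2. With array weights Smc1b was 0.16 at 18 h, Syce2 0.054 at 18 h against 6 h and Sycp2 -0.059 at 2 h. Under cyclic loess Syce2 was 0.00011 and Sycp2 -0.010 in those comparisons. Under 75th percentile scaling Sycp1 was -0.016 at 6 h against 2 h and Sycp2 -0.11 at 2 h. Sycp2 at 6 h was 0.0025 without background correction and 0.0027 in the authors' table. The cause of these shifts was not tested.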
